A study of Homo sapiens with 6 samples.

Results

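The S100 genes encode small calcium-binding proteins, and 10 of them were followed here through RNA-seq of IGF2BP1-KD and control cells: S100A4, S100A6, S100A8, S100A9, S100A10, S100A11, S100A12, S100A13, S100A16 and S100P. These 10 of the 20030 genes in the count table were chosen by name, with their levels in these same libraries already known, and 11 further S100 genes of the table lay outside the choice. The cells were labelled H929, an established human multiple myeloma cell line. In the 3 IGF2BP1-KD libraries the RNA-binding protein IGF2BP1 was targeted with a lentiviral shRNA under puromycin selection, and the 3 IGF2BP1-NC libraries came from cells labelled as the negative control, whose vector the sources used here do not describe. Of the shRNA targets the methods list, none was assigned to these libraries. The sources used here do not say that replicates were separate cultures, so the p-values below measure only the spread between these libraries, which may be technical.

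Most S100 proteins work as dimers that open a binding surface when calcium rises and then hold a partner protein. Inside the cell they bind annexins, myosin heavy chains and scaffold proteins. S100A8, S100A9 and S100A12 are abundant in the cytoplasm of neutrophils and monocytes, where S100A8 and S100A9 form the heterodimer calprotectin, and all 3 act as danger signals on receptors such as TLR4 and AGER once released. S100A10 is the exception of the family, since its calcium-binding loops have lost their function and it is held in a complex with annexin A2, where it takes part in plasmin formation at the cell surface. In bulk RNA, fewer cells of a type and less RNA per cell cannot be told apart.

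Total counts lay between 16885449 and 18112179 per library, and a count of 0 allows up to 3 counts, or 0.166 to 0.178 CPM (counts scaled to the library total), for counting error only. The targeted gene had 7550, 6904 and 8055 counts in control libraries 1 to 3 against 2193, 1980 and 2019 after knockdown (log2 fold change -1.85), so the levels fitted the labels. Of 14 markers of plasma cells, the labelled cell type, 7 had at most 3 counts in every library, including IRF4, CD38 and TNFRSF17. XBP1, PRDM1 and SDC1 were above 1 CPM in every library, with 1181 to 2689, 29 to 60 and 35 to 62 counts. SLAMF7 had 4, 5 and 4 counts in the controls and 52, 42 and 181 in IGF2BP1-KD cells, and it entered the test only through the group where it was high. It was past the threshold used below (edgeR adjusted p = 0.00878), but not without IGF2BP1-NC library 1 or 3. Every library instead held more than 1 CPM of each of 13 erythroid markers, whose median was 207.7 CPM. Of these 13, 2 rose and 5 fell, against 28.2% of all tested genes called in either direction. The cells are therefore called here by their labels, with these values beside them. IGF2BP1-KD libraries 2 and 3 stood apart from the other 4 libraries in some transcripts of neutrophils, as described with S100A8, S100A9 and S100A12 below.

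S100P, S100A8, S100A9 and S100A12 showed the largest differences between libraries among the 10 genes, and S100A11 had the highest level. The 100 bases before the annotated transcription start of each of these 5 genes are given first, so that the start regions of the genes can be set beside their expression. They were read from RefSeq (GRCh38.p14) on the strand of the gene, 5′ to 3′. Capitals mark the letters TATAAA, searched on the strand of the gene, and TTNNGNAA, a pair of half-sites of the kind bound by C/EBP factors, searched on both strands. S100A9 is shown from chr1:153357754-153357853 on the plus strand, S100A8 from chr1:153391074-153391173, S100A12 from chr1:153375622-153375721 and S100A11 from chr1:152037005-152037104 on the minus strand, and S100P from chr4:6693778-6693877 on the plus strand.
S100A8: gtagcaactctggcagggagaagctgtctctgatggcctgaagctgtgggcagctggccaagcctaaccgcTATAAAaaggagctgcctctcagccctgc
S100A9: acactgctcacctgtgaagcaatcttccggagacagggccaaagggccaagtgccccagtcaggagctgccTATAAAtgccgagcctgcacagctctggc
S100A12: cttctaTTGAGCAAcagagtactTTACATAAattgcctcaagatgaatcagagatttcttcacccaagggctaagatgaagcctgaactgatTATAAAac
S100P: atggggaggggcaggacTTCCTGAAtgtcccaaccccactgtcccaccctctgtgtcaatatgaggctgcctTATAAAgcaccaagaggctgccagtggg
S100A11: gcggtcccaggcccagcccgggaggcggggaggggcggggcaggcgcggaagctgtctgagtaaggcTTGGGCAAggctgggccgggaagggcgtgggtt

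TATAAA was found before the start of 6 of the 10 genes, against 3.51% of 34943 promoters in the RefSeq table. Counted back from the start, its first letter lay at -29 in S100A8, S100A9 and S100A13, at -28 in S100P, at -31 in S100A4 and at -8 in S100A12. TTNNGNAA was found in 3 of the 10, namely S100A11, S100P and S100A12, and in 13.1% of all promoters. S100A12 held it at -94 and again at -77. The letters AGATAA, bound by erythroid factors and searched on both strands, were in none of the 10 windows and in 3.3% of all promoters. CCNCNCCC, a motif of the KLF and SP factors searched on both strands, was in 5 of 10 and in 37.2%. These are matches of letters in a short window, and nothing was measured about binding. The annotated start was used, and the table holds 3 starts for S100A8 and for S100A13 and 2 for S100A16.

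Of the 10 genes, 9 lie in the S100 cluster of chromosome 1 (GRCh38, GENCODE release 44), within 1648 kb between 151982915 and 153631360. S100A10 (NCBI gene 6281) and S100A11 (NCBI gene 6282) form its proximal end, at 151982915 to 151993859 and 152032506 to 152047907. S100A9 (NCBI gene 6280), S100A12 (NCBI gene 6283) and S100A8 (NCBI gene 6279) follow each other between 153357854 and 153391073. S100A6 (NCBI gene 6277), S100A4 (NCBI gene 6275), S100A16 (NCBI gene 140576) and S100A13 (NCBI gene 6284) lie between 153534599 and 153631360. S100P (NCBI gene 6286) lies alone on chromosome 4, from 6693878 to 6697170. The reference transcript of each gene on chromosome 1 has 3 exons, and that of S100P has 2. Of the exon bases of S100A13, 10.6% overlap S100A1 on the opposite strand and 24.2% overlap a long noncoding RNA on its own strand that the count table does not list, and the strand setting of the counting was not given in the sources used here.

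Levels were compared between genes in FPKM, which divides by gene length. In IGF2BP1-NC cells S100A11 was the highest of the 10 with 137 ± 15.0 FPKM (SD, n = 3), followed by S100A6 with 48.1 ± 6.58, S100A13 with 14.5 to 16.9 and S100A4 with 11.2 ± 3.71. S100A11 and S100A6 were separated from each other and from the rest in every library, while the libraries of S100A13 and S100A4 overlapped. S100P with 2.80 ± 2.39 FPKM and S100A16 with 2.62 ± 0.89 also overlapped. S100A10, S100A9 and S100A8 stayed below 1 FPKM in every IGF2BP1-NC library, and S100A12 was at 0. In IGF2BP1-KD cells the order began again with S100A11 (209 ± 34.3 FPKM) and S100A6 (59.8 ± 5.09), and S100P came next with 27.0 ± 4.26, overlapping S100A13 with 23.4 ± 3.17. From S100A4 down to S100A10 every neighbour in the IGF2BP1-KD order overlapped the next. S100A11 alone took 47.9% to 54.6% of the counts of the 10 genes in a library.

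**Figure D1:**
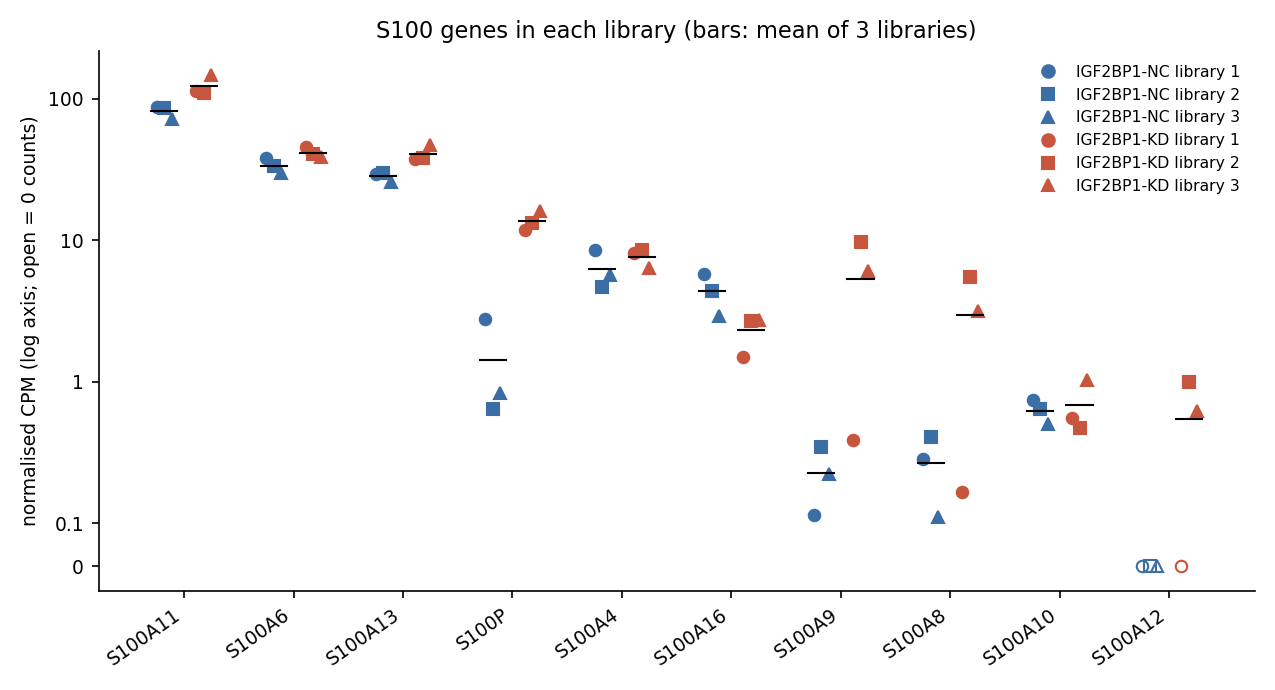
Normalised CPM (log axis) of each of the 10 S100 genes, with 1 point per library, open points for 0 counts and a bar at the mean of the 3 libraries of a group (blue IGF2BP1-NC, red IGF2BP1-KD). S100P is higher in every IGF2BP1-KD library, and S100A8, S100A9 and S100A12 are raised in IGF2BP1-KD libraries 2 and 3 but not in library 1.

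For the comparison of the groups, CPM were normalised with TMM factors, and 11994 genes passed the filter on low counts. These were tested with the quasi-likelihood test of edgeR, and p-values were adjusted after Benjamini and Hochberg over all of them, with a threshold of 0.05. Across all tested genes 13.7% were called higher and 14.5% lower in IGF2BP1-KD cells, 28.2% in either direction, and in 45.6% the groups did not overlap. Of the 10 S100 genes, 7 passed the filter, 4 of these were past the threshold as higher (S100P, S100A11, S100A13, S100A6) and 1 as lower (S100A16), and in 5 of the 7 the groups did not overlap. Since the genes had been chosen with this contrast known, nothing is read from these counts, and the values below are a description without a test. Fold changes are IGF2BP1-KD against IGF2BP1-NC with their standard error (SE), and the median log2 fold change was 0.307 over the 7 genes and -0.00476 over all tested genes.

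**Figure D2:**
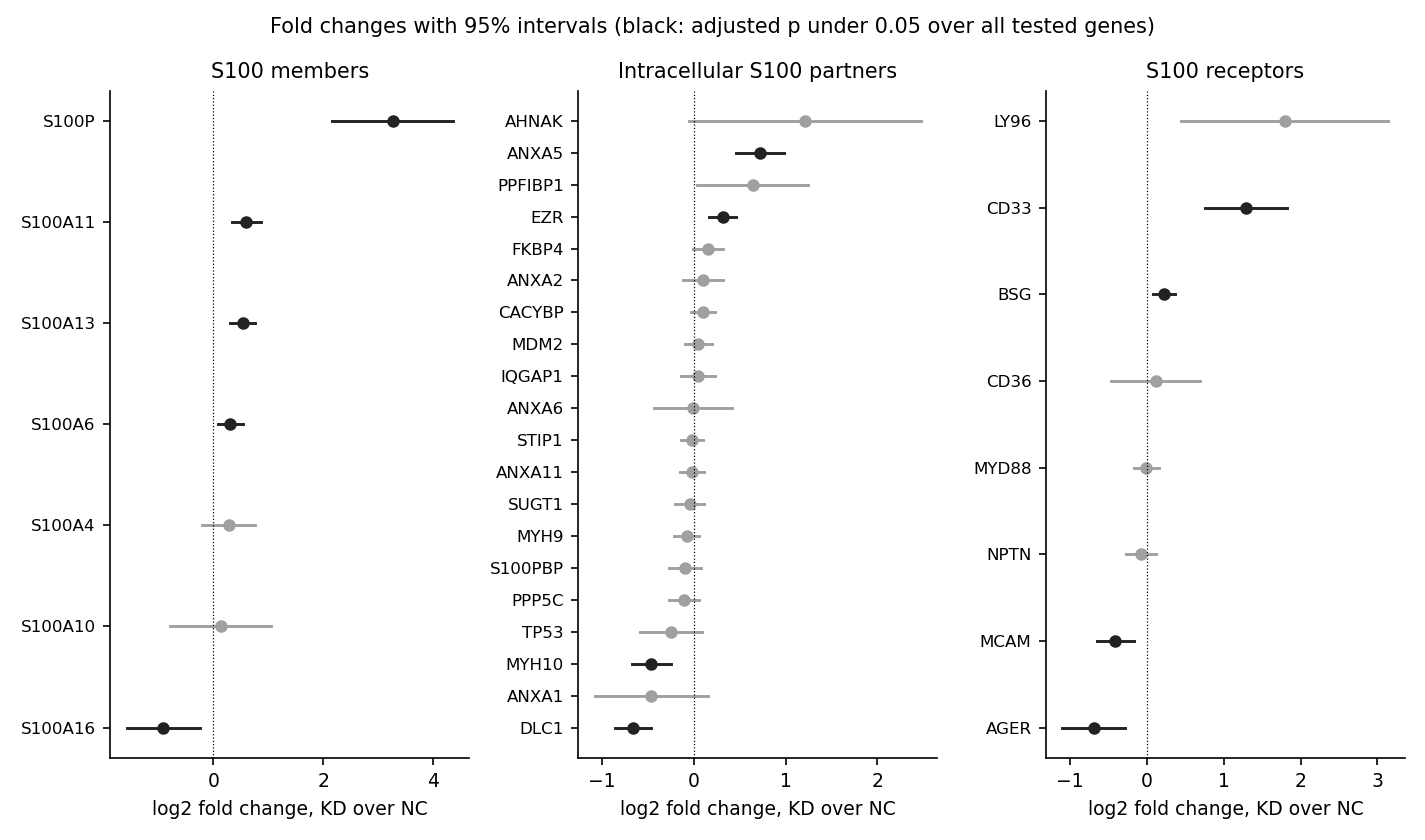
Log2 fold change (IGF2BP1-KD over IGF2BP1-NC) with 95% confidence intervals of the tested S100 genes, of the tested intracellular partners and of the tested receptors, in black where the adjusted p is under 0.05. S100P lies at 3.26, S100A11, S100A13 and S100A6 lie between 0.31 and 0.60, S100A16 lies at -0.91, and 4 of 20 partners and 4 of 8 receptors are in black.

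S100P, which binds ezrin inside the cell and the receptor AGER outside it, had by far the largest difference of the 7. Its counts were 49, 11 and 15 in control libraries 1 to 3 and 212, 226 and 281 in the IGF2BP1-KD libraries, or 1.24 to 5.55 FPKM against 23.2 to 31.6 FPKM. The lowest IGF2BP1-KD library was thus above the highest IGF2BP1-NC library. The difference was 9.60-fold (log2 fold change 3.26, SE 0.46). IGF2BP1-NC library 1 held more S100P than the other controls, and the coefficient of variation among the controls was 83.7%. Without that library the difference was 18.4-fold, and without IGF2BP1-NC library 2 it was 7.56-fold.

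The 3 tested genes whose pattern over the 6 libraries was most like that of S100P, by the root mean square difference of log2 CPM centred on each gene's mean, were PRSS2 (0.130), KLHDC7B (0.207) and LOC107984862 (0.433). PRSS2, a trypsinogen gene, had 83, 23 and 36 counts in the controls and 395, 465 and 529 in IGF2BP1-KD cells. It shared with S100P the higher value in IGF2BP1-NC library 1. Trypsinogen genes are near-identical, so reads could have been split between them. KLHDC7B had 6, 0 and 1 counts against 26, 31 and 30.

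S100A11, which binds annexin A1, had 1524, 1483 and 1291 counts in IGF2BP1-NC cells and 2032, 1876 and 2569 in IGF2BP1-KD cells. All IGF2BP1-KD libraries were above all controls, and IGF2BP1-KD library 3 was the highest. In CPM the libraries read 86.9, 86.1 and 72.2 against 113.6, 110.6 and 146.5, a difference of 1.51-fold (log2 fold change 0.60, SE 0.12).

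S100A13, which takes part in the release of FGF1 and other proteins that lack a signal peptide, had 516, 513 and 465 counts in the controls and 671, 650 and 830 in IGF2BP1-KD cells. The groups did not overlap, and library 3 was again the highest. The difference was 1.45-fold (log2 fold change 0.53, SE 0.10). S100A1, which overlaps S100A13 on the opposite strand and is known from heart muscle, had 93, 86 and 48 counts against 77, 108 and 122, so its groups overlapped, with a log2 fold change of 0.44 (SE 0.27, edgeR adjusted p = 0.251). FGF1 itself had 0 counts in every library.

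S100A6, called calcyclin, had 666, 575 and 531 counts in IGF2BP1-NC cells and 819, 689 and 677 in IGF2BP1-KD cells. In CPM these were 38.0, 33.4 and 29.7 against 45.8, 40.6 and 38.6, so the lowest IGF2BP1-KD library stood just above the highest control. The difference was 1.24-fold (log2 fold change 0.31, SE 0.10), and it stayed past the threshold in only 2 of the 6 fits that left out 1 library, those without IGF2BP1-NC library 1 and without IGF2BP1-KD library 3. It also missed the threshold in FPKM values.

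S100A4, called metastasin and a partner of non-muscle myosin, had 150, 81 and 102 counts in the controls and 145, 145 and 111 in IGF2BP1-KD cells. The groups overlapped through IGF2BP1-NC library 1, and the log2 fold change was 0.28 (SE 0.22, 95% confidence interval -0.21 to 0.77). Without that library it was 0.56 and past the threshold.

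S100A10 had 13, 11 and 9 counts in IGF2BP1-NC cells and 10, 8 and 18 in IGF2BP1-KD cells. These few counts overlapped, and the log2 fold change of 0.13 (SE 0.42) had a 95% confidence interval from -0.79 to 1.05, so a change of moderate size was not detectable at this depth. Annexin A2, with which its protein is paired, was abundant at 71.7 ± 3.69 FPKM in the controls and 77.6 ± 11.8 in IGF2BP1-KD cells (SD, n = 3).

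S100A16, a widely expressed member of the family, was the 1 gene past the threshold as lower. Its counts were 101, 76 and 52 in the controls and 27, 46 and 48 in IGF2BP1-KD cells, or 5.76, 4.41 and 2.91 CPM against 1.51, 2.71 and 2.74 CPM. The groups did not overlap, but IGF2BP1-NC library 3 and IGF2BP1-KD library 3 were close. The level was 1.88-fold higher in the controls (log2 fold change -0.91, SE 0.30), and only the fit without IGF2BP1-NC library 3 kept it past the threshold among the 6 that left out 1 library. It also missed the threshold when scaled by library size alone, in FPKM values and with the replicate block. The genes most like it in pattern were PLCB4 (root mean square difference 0.137), BACH2 (0.164) and SLC24A2 (0.179).

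**Figure D3:**
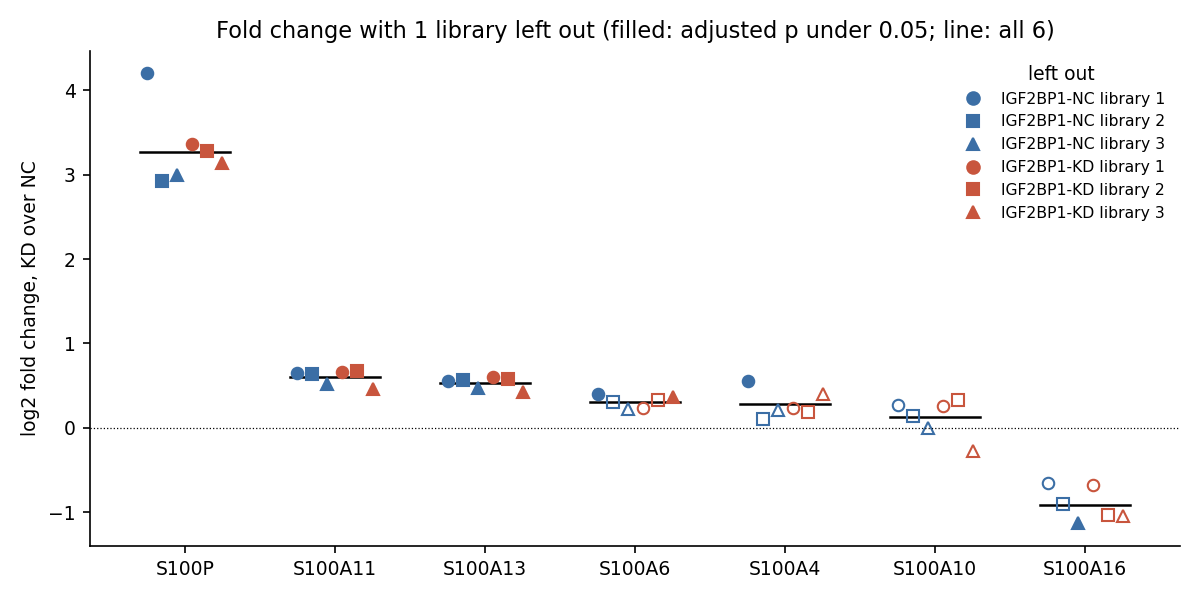
Log2 fold change (IGF2BP1-KD over IGF2BP1-NC) of the 7 tested S100 genes from all 6 libraries (line) and after leaving out 1 library (points, coloured and shaped by the library left out, filled where the adjusted p is under 0.05). S100A11 (0.46 to 0.67), S100A13 (0.42 to 0.60) and S100P (2.92 to 4.20) stay past it in all 6 fits, S100A6 in 2 and S100A16 in 1. These fits share most of their libraries, and the genes were chosen with this contrast known, so this is a description without a test.

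The number of S100 genes past the threshold was 3 without IGF2BP1-NC library 2 and 3 without IGF2BP1-KD library 2.

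S100A8, S100A9 and S100A12 had reads chiefly in IGF2BP1-KD libraries 2 and 3, and all 3 fell under the filter on low counts, so they were not tested. S100A9 had 2, 6 and 4 counts in control libraries 1 to 3 and 7, 164 and 106 in IGF2BP1-KD libraries 1 to 3. S100A8 had 5, 7 and 2 against 3, 94 and 56. S100A12 had 0, 0 and 0 against 0, 17 and 11. IGF2BP1-KD library 1 was therefore near the level of the controls for each of these genes, and the large difference lay between libraries of one group. For S100A9, IGF2BP1-KD library 1 read 0.391 CPM against 0.348 in IGF2BP1-NC library 2, so its groups narrowly did not overlap.

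Summed over the 3 genes, the 4 other libraries held 6 to 13 counts, while IGF2BP1-KD library 2 held 275 (exact Poisson 95% interval 243 to 309) and library 3 held 173 (148 to 201). S100A9 made up 59.6% of the sum in library 2 (exact Clopper-Pearson 95% interval 53.6 to 65.5) and 61.3% in library 3 (53.6 to 68.6). S100A8 made up 34.2% (28.6 to 40.1) and 32.4% (25.5 to 39.9). The 3 genes thus stood in nearly the same proportions in both libraries, within counting error, and S100A12 added 6.18% (3.64 to 9.71) and 6.36% (3.22 to 11.1). The intervals cover counting error only.

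Some other genes of neutrophil granules were raised in the same 2 libraries. A search of all 20030 genes, made after the values had been seen, for at least 10 counts in both IGF2BP1-KD libraries 2 and 3 and at least 4 times the CPM of the highest other library found 7 genes. Beside the 3 S100 genes these were LTF, the iron-binding lactoferrin, ELANE, the neutrophil elastase, CAMP, the cathelicidin antimicrobial peptide, and IGLL5, a gene of the immunoglobulin lambda locus. LTF had 9, 3 and 6 counts in the controls and 4, 72 and 47 in IGF2BP1-KD cells. ELANE had 0, 2 and 2 against 3, 17 and 17, and CAMP had 1, 1 and 0 against 1, 15 and 15. IGLL5 had 5, 7 and 4 against 3, 42 and 40. In each of these genes IGF2BP1-KD library 1 was near the level of the controls, and in ELANE it was just above each of them.

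Over the list of 29 granulocyte and monocyte markers, 14 were higher in both of these libraries than in each of the other 4. The share of all genes with this pattern was not counted. MPO had 2, 5 and 8 counts in the controls and 4, 24 and 25 in IGF2BP1-KD cells. In some of the 14 the gap was small or IGF2BP1-KD library 1 was also raised. CTSG had 1, 0 and 3 counts against 4, 5 and 12, and LCN2 had 2, 6 and 6 against 13, 23 and 24. LYZ read 37.6 CPM in IGF2BP1-KD library 2 against 37.1 in IGF2BP1-NC library 1. AZU1 and PRTN3, also genes of neutrophil granules, were not among the 14. AZU1 read 2.17 CPM in IGF2BP1-KD library 3 against 2.28 in IGF2BP1-NC library 1. PRTN3 read 0.708 CPM in IGF2BP1-KD library 2 against 0.783 in IGF2BP1-NC library 3. VCAN was lower in both libraries than in each of the other 4. Leaving out the 3 most abundant markers (CEBPB, LYZ and SPI1), the summed level of the other 26 was 15.9, 16.6 and 15.0 CPM in the controls and 17.4, 29.1 and 38.6 CPM in IGF2BP1-KD libraries 1, 2 and 3. The full sum, which CEBPB, LYZ and SPI1 dominate, was 101.4 to 197.8 CPM in the controls and 109.7 to 154.6 CPM in IGF2BP1-KD cells. Between 4 and 7 markers were at 0 in the other 4 libraries, 0 in library 2 and 1 in library 3. The part of such transcripts in the levels of S100A8, S100A9 and S100A12 was not tested.

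Of the 14 markers tested, 4 rose, against 13.7% of all tested genes, and none fell, the latter also at an unadjusted p under 0.05 and with DESeq2. CSF3R, the receptor for the granulocyte growth factor G-CSF, had 2, 4 and 1 counts in the controls and 23, 26 and 54 in IGF2BP1-KD cells (log2 fold change 3.82, SE 0.56, edgeR adjusted p = 0.000758). Unlike S100A8, S100A9 and S100A12, it was also raised in IGF2BP1-KD library 1. FPR1, the formyl peptide receptor, rose by 2.35 (edgeR adjusted p = 0.0089). Both passed the filter on low counts only through the IGF2BP1-KD libraries, where they were high. The count of 4 was 0 by edgeR with at least 10 counts in every library and by limma on FPKM (0 at an unadjusted p under 0.05 in both). It was 7 without a filter and 8 with DESeq2 or without IGF2BP1-KD library 1.

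**Figure D4:**
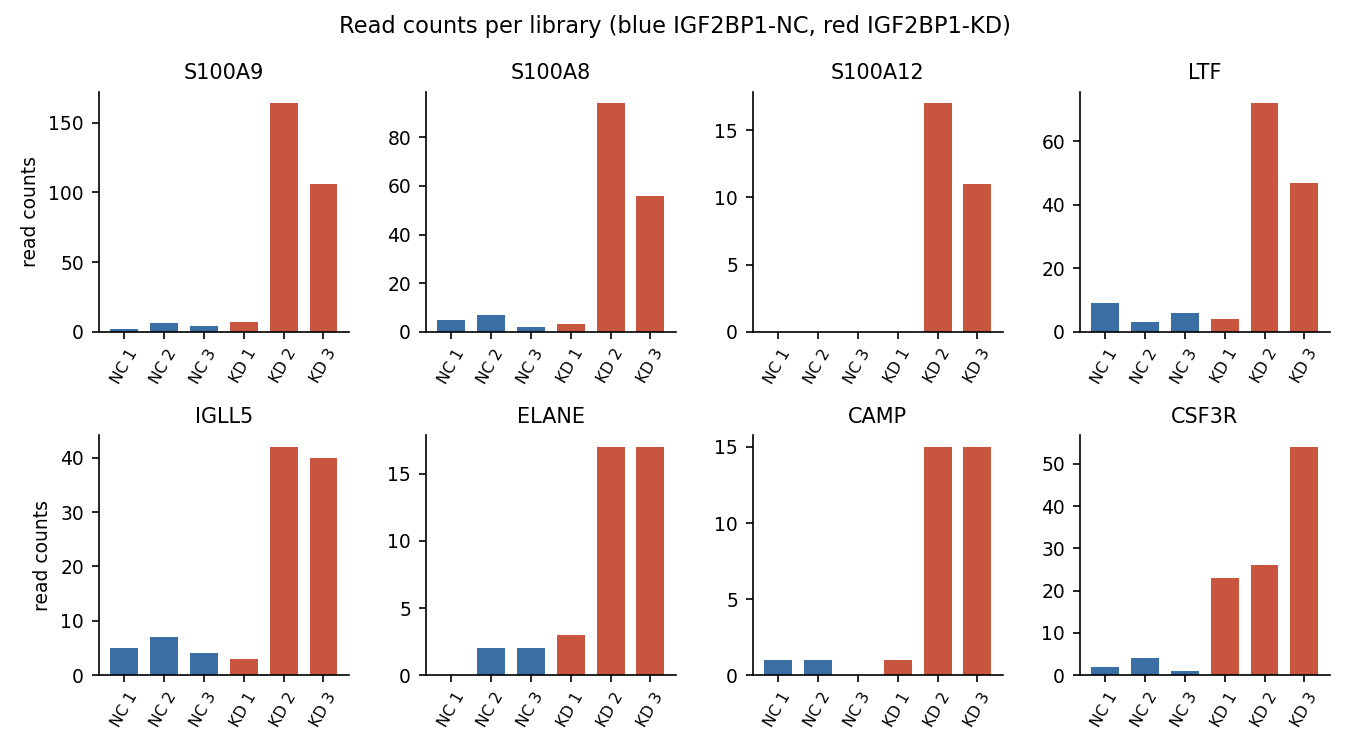
Read counts in each of the 6 libraries (blue IGF2BP1-NC, red IGF2BP1-KD, each panel with its own axis from 0) of the 7 genes high in IGF2BP1-KD libraries 2 and 3 alone and of CSF3R. The 3 IGF2BP1-NC libraries and IGF2BP1-KD library 1 have at most 7 counts of S100A8, S100A9 or S100A12, libraries 2 and 3 have 94 and 56 of S100A8 and 164 and 106 of S100A9, and CSF3R is also raised in library 1.

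Of 22 listed genes for proteins that S100 proteins bind inside the cell, 20 were tested, 2 rose, 2 fell and 16 did not pass the threshold, against 28.2% called among all tested genes, with a median log2 fold change of -0.0114. ANXA5, an annexin that binds phosphatidylserine, rose from 1444, 1474 and 1626 counts to 2228, 2204 and 3004 (log2 fold change 0.72, SE 0.12, edgeR adjusted p = 0.0023). EZR, the membrane linker ezrin and a partner of S100P, rose by 0.32 (SE 0.07, edgeR adjusted p = 0.00563). DLC1, a GTPase-activating protein that binds S100A10, fell from 612, 635 and 712 counts to 440, 412 and 382 (log2 fold change -0.66, SE 0.09, edgeR adjusted p = 0.000444), and MYH10, a non-muscle myosin heavy chain, fell by 0.46 on the log2 scale (edgeR adjusted p = 0.00624). In each of these 4 genes the groups did not overlap, and each stayed past the threshold with any 1 library left out.

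ANXA2, CACYBP and MYH9, the textbook partners of 3 S100 proteins, did not pass the threshold. ANXA2, the partner of S100A10, had a log2 fold change of 0.10 (SE 0.10, edgeR adjusted p = 0.479), and its groups overlapped. CACYBP, the calcyclin-binding protein named for S100A6, had 0.10 (SE 0.06, edgeR adjusted p = 0.244). MYH9, the non-muscle myosin heavy chain bound by S100A4, had -0.07 (SE 0.06, edgeR adjusted p = 0.397). The standard errors of CACYBP and MYH9 were small, and their 95% confidence intervals ran from -0.03 to 0.23 and from -0.21 to 0.06.

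Of 10 genes for cell surface receptors of S100 proteins and their adaptors, 8 were tested, 2 rose and 2 fell, against 13.7% higher and 14.5% lower among all tested genes, with a median log2 fold change of 0.0528. CD33, a sialic acid-binding receptor of myeloid cells that binds S100A9, had 206, 164 and 135 counts in the controls and 359, 325 and 548 in IGF2BP1-KD cells (log2 fold change 1.29, SE 0.23, edgeR adjusted p = 0.00537). BSG, the immunoglobulin-family protein basigin, rose by 0.22 (SE 0.07, edgeR adjusted p = 0.0285). AGER, the receptor for advanced glycation end products, fell from 147, 125 and 108 counts to 68, 81 and 85 (log2 fold change -0.69, SE 0.19, edgeR adjusted p = 0.0179), and MCAM fell by 0.41 on the log2 scale (edgeR adjusted p = 0.0177). CD33 kept its place past the threshold with any library left out, whereas AGER and MCAM each lost it in 2 of the 6 fits and BSG in 3. The count of 4 was 2 without IGF2BP1-NC library 2. TLR4, the receptor of S100A8 and S100A9 in innate immune cells, had at most 3 counts in any library.

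Of 8 genes of plasminogen activation, the process in which S100A10 takes part, 6 were tested, and their median log2 fold change was -0.206. Of these 6, 1 rose and 1 fell, against the same 28.2%. ENO1, a glycolytic enzyme that also binds plasminogen at the cell surface, fell by 0.34 on the log2 scale (SE 0.06, edgeR adjusted p = 0.00316). ENO1 stayed past the threshold with any 1 library left out. The activators PLAT and PLAU overlapped between the groups.

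Of 10 listed S100 genes outside the choice, S100A1, with 48 to 122 counts, was the only one tested, and 5 had at most 3 counts in every library. S100A5 had 5, 5 and 8 counts in the controls and 15, 4 and 12 in IGF2BP1-KD cells, and S100A14 had 13, 3 and 4 against 5, 7 and 9. The 7 fused-type S100 genes of the epidermis, such as FLG, which lie in the same cluster, had at most 1 count in any library.

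The chromosome 1 members were set beside the 110 other genes that lie within 1 Mb of any of them, the 7 fused-type genes included. Of these neighbours 50 were tested, 8 rose and 5 fell, which is 13 called against 28.2% of all tested genes, with a median log2 fold change of 0.0629, and 37 of the 110, 5 of them fused-type genes, had no counts at all. SPRR2D, a cornified envelope gene, rose from 9, 2 and 7 counts to 41, 33 and 52 (log2 fold change 2.79, SE 0.41, edgeR adjusted p = 0.000802). IL6R, the interleukin-6 receptor, rose by 1.85 (edgeR adjusted p = 0.0156) and PRR9 by 1.66 (edgeR adjusted p = 0.0213), both from at most 10 counts per control library. SPRR2D, IL6R and PRR9 passed the filter on low counts only through the IGF2BP1-KD libraries, where they were high, and with at least 10 counts in every library 6 neighbours rose and 4 fell. CHTOP, a chromatin and mRNA export protein, fell by 0.46 on the log2 scale (edgeR adjusted p = 0.000782), MLLT11 by 0.44 (edgeR adjusted p = 0.00562) and SEMA6C, a semaphorin, by 0.59 (edgeR adjusted p = 0.0474). SPRR2D, CHTOP and MLLT11 stayed past the threshold with any library left out, IL6R in 4 of 6 fits, PRR9 in 2 and SEMA6C in 1. The count of 13 was 7 without IGF2BP1-KD library 2.

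**Figure D5:**
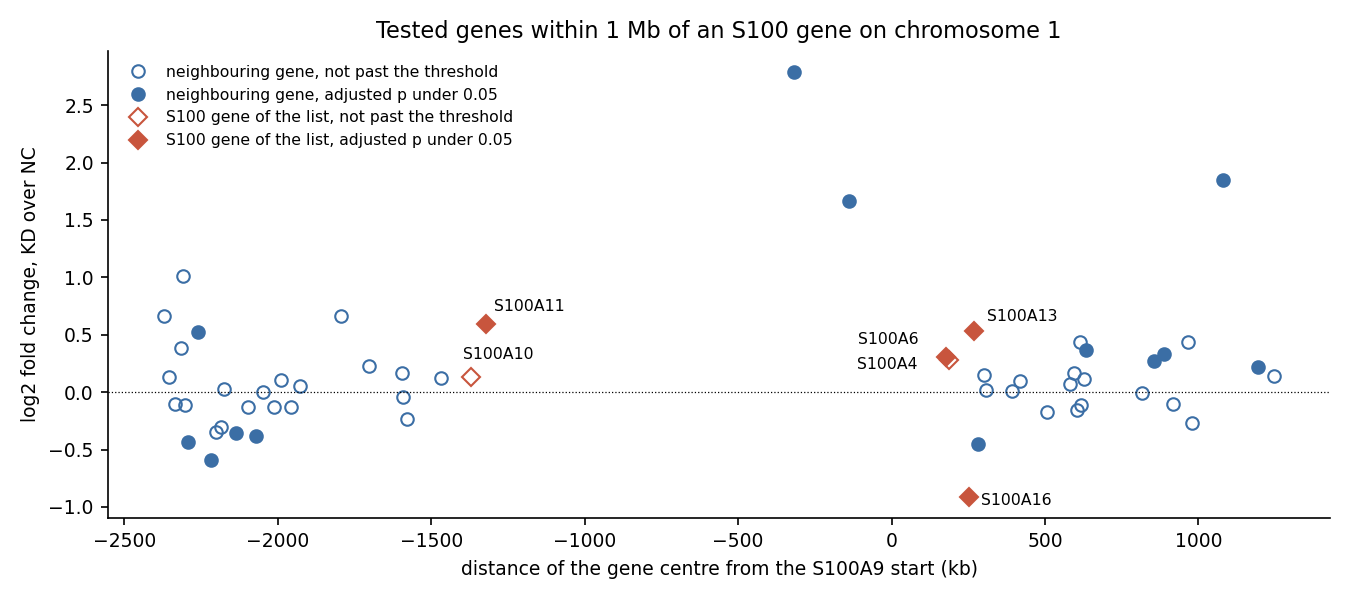
Log2 fold change (IGF2BP1-KD over IGF2BP1-NC) of the tested S100 genes of chromosome 1 (diamonds) and of their 50 tested neighbours (circles), filled where the adjusted p is under 0.05, against the distance of the gene centre from the start of S100A9 in kb. S100A11, S100A13 and S100A6 lie above 0 and S100A16 lies below it, among 8 neighbours that rose and 5 that fell.

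With IGF2BP1-KD libraries 2 and 3 left out together, the remaining IGF2BP1-KD library is assumed to vary like the controls. This fit was chosen after seeing the data. With 1 library left in a group it cannot decide which genes differ, so only fold changes are given here. The log2 fold changes of S100P (3.06), S100A11 (0.48), S100A13 (0.41) and S100A6 (0.45) kept their sign, as did S100A16 (-1.52) and S100A4 (0.36), while S100A10 moved to -0.16. In S100P, S100A11, S100A13 and S100A6, IGF2BP1-KD library 1 was above every control, and in S100A16 it was below every control. This rests on 1 library, and the cause of the differences was not tested.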

How the data were processed

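RNA from 3 IGF2BP1-NC and 3 IGF2BP1-KD samples, grouped by their labels, had been sequenced with a stranded mRNA kit. Per the labels, the authors used Trimmomatic for trimming, HISAT2 for mapping to GRCh38 and HTSeq for the counts per gene, which they deposited without normalization. The deposited FPKM values were calculated by the authors with Cufflinks. Versions, annotation and strand setting are not given in the sources used here. Totals were 16885449 to 18112179 counts. Among the FPKM rows, 27 symbols had turned into dates and were matched by gene ID.

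Differences were tested with edgeR 4.0.16 in R 4.3.3 (TMM factors, filterByExpr with a minimum count of 10, robust glmQLFit, glmQLFTest, two-sided, Benjamini-Hochberg over 11994 genes). Alternatives were DESeq2 1.42.0, limma 3.58.1 on log2(FPKM + 1) for genes with a mean of at least 1, library size only, no filter, 10 counts in every library, the replicate block and each library left out. Promoter letters were counted and figures drawn in Python 3.11.15 with matplotlib 3.10.9, and intervals came from scipy 1.17.1. The fits were tested on simulated data.

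The S100 genes and all lists (partners, receptors, plasminogen activation, granulocyte and monocyte, erythroid and plasma cell markers, neighbours within 1 Mb) were chosen with earlier results of these data known. Named genes are the 10 S100 genes, other S100 genes with at least 10 counts in any library, up to 3 largest rises and 3 largest falls past the threshold in a list, ANXA2, CACYBP, MYH9, AGER, TLR4, BSG and IGF2BP1, and the 3 genes most like S100P and S100A16. Others were chosen after their values were seen. Some genes that this rule names are not reported here.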

Additional observations from a re-analysis of the deposited data

How the results depend on the processing

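Of 89 recomputed log2 fold changes of the 7 tested S100 genes, 86 kept their direction, 18 lost the threshold and 1 gained it. The 3 that turned direction belong to S100A10, at -0.16 without IGF2BP1-KD libraries 2 and 3, -0.28 without IGF2BP1-KD library 3 and -0.0054 without IGF2BP1-NC library 3, against at most 0.33 with another library left out. The causes were not tested. Leaving out 1 library gave 3 to 6 S100 genes past the threshold, 4 to 5 partners, 2 to 5 receptors, 2 plasminogen genes, 3 to 8 granulocyte and monocyte markers, 7 to 17 neighbours and 2290 to 3991 genes in all. Without IGF2BP1-KD libraries 2 and 3 together, these counts were 0, 2, 1, 0, 1, 2 and 566. That fit leaves 1 library in the IGF2BP1-KD group and cannot decide which genes differ, so nothing is read from its counts. The granulocyte and monocyte count of 4 became 8 with DESeq2, 7 without a filter, and 0 both with at least 10 counts in every library and with limma on FPKM, where 8 and 6 of the 29 were tested. DESeq2 called 3093 genes in all and limma 2818. S100A8, S100A9 and S100A12 could be tested only in some fits. DESeq2 put S100A8 and S100A9 past the threshold, limma on FPKM put S100A9, and edgeR without IGF2BP1-KD library 1 put all 3. None of the 3 was past it by edgeR without a filter, or without IGF2BP1-NC library 1, 2 or 3.

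Deviations of same-numbered libraries correlated at -0.052, 0.036 and -0.106, against -0.067 to 0.095 for libraries with different numbers. With so few libraries per group, these values cannot decide whether the replicate numbers pair the libraries. With the replicate block, 2913 genes and 4 S100 genes were called, 4 partners, 4 receptors, 2 plasminogen genes, 4 markers and 13 neighbours. Depth limits S100A10, with at most 18 counts in a library.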

Other observations

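AHNAK, a giant scaffold protein that binds S100A10 with annexin A2, had 3708, 2754 and 2659 counts in the controls and 4767, 4619 and 11642 in IGF2BP1-KD cells. The groups did not overlap, but the value of library 3 stood far above the others, and the log2 fold change of 1.21 (SE 0.47) did not pass the threshold (edgeR adjusted p = 0.134). LY96, the co-receptor of TLR4, had 5, 5 and 13 counts against 12, 19 and 49, with an edgeR adjusted p of 0.0514. SLAMF7, AHNAK and LY96 all had their highest count in IGF2BP1-KD library 3, which was also the highest for S100P, S100A10, S100A11 and S100A13. That library was instead the lowest of the IGF2BP1-KD libraries for S100A4 and S100A6. For S100A8, S100A9 and S100A12 it lay below IGF2BP1-KD library 2. The share of all genes with their highest count in library 3 was not counted. AHNAK and LY96 were singled out after their values were seen.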
